A study of Mus musculus with 15 samples.

Results

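The Slc25 mitochondrial carriers were followed through oocyte maturation in mice. They were taken as the genes whose probe sets, the groups of short probes that an Affymetrix array uses to measure a transcript, are annotated with exactly 1 gene symbol beginning with Slc25a. Of the 18193 genes with a probe set of this kind, 44 were Slc25 carriers, measured by 93 probe sets. Where a carrier had several probe sets, the brightest by its mean over all 15 arrays stood for it. After a filter on low signal 37 carriers were tested, and Slc25a2, Slc25a18, Slc25a37, Slc25a41, Slc25a45, Slc25a47 and Slc25a54 were not.

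The SLC25 family moves small molecules across the inner mitochondrial membrane, which is otherwise closed to charged metabolites. Its members exchange ADP for ATP, import phosphate for ATP synthesis, carry citrate, dicarboxylates, amino acids, acylcarnitines and iron, and bring in cofactors and nucleotides that mitochondria cannot make. Fully grown oocytes hold very many mitochondria and draw most of their ATP from oxidative phosphorylation. They are transcriptionally silent from the end of growth until the embryonic genome is activated, so that measured transcript levels in maturation change mainly through decay of stored maternal mRNA and through changes in poly(A) tail length.

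Pools of 150 oocytes came from female B6D2F1 mice, a first-generation hybrid, after injection of the gonadotropin PMSG. Adult females of 7 to 8 weeks gave immature oocytes with an intact germinal vesicle (GV, n = 2 arrays), collected 48 h after PMSG. Other oocytes had reached metaphase II (MII), where an egg waits for fertilisation. In the adults these had matured in the animal after hCG (in vivo, n = 3) or for 16 h in culture from the GV stage (in vitro, n = 2). Peripubertal females aged 26 days (d26) supplied MII oocytes of both kinds, with 2 arrays in vivo and 3 in vitro. Prepubertal females aged 20 days (d20) supplied only the in vitro kind, with 3 arrays. GV oocytes were present for adults alone. All groups had been treated with hyaluronidase to strip the surrounding cumulus cells, and all RNA was poly(A) RNA, isolated as such and amplified in a pair of rounds. Levels below are log2 intensities after quantile normalization, which gives all arrays the same distribution.

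Arrays differed in brightness. Dim arrays numbered 4: the first adult in vivo replicate, the second adult in vitro replicate, and replicates 2 and 3 of d26 in vitro. They had 2637 to 3061 probe sets above 200 in deposited units, and the other 11 had 4903 to 9842, with the GV pair at the top. In the d26 in vivo arrays the Gapdh control signal at the 3' end was 82.3 and 68.0 times that at the 5' end. This ratio was 13.7 and 17.7 at GV, 3.31 in the dim adult in vivo array and 2.27 in the dim adult in vitro array. In the remaining arrays it was 12.6 to 26.8. Of 12 oocyte markers all were tested and 7 were lower at MII than at GV in both adult comparisons. Of all genes tested 12.3% were lower in vivo and 12.9% in vitro. The summed deposited intensity of the 11 cumulus and granulosa markers on the array was 689 to 718 at GV, 315 to 968 in adult in vivo and 328 to 591 in adult in vitro MII oocytes. For 9 leukocyte markers it was 233 to 286, 182 to 509 and 55.7 to 113, and for 4 erythroid markers 42.9 to 44.0, 32.7 to 61.4 and 5.25 to 35.8. For 5 oviduct markers it was 66.0 to 80.0, 96.6 to 658 and 8.37 to 50, and Ovgp1, the oviductal glycoprotein, rose by 3.63 (SE 0.84) in vivo. No marker was at 0 on every array, and the part of these RNAs in the results was not tested.

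Upstream sequence was read for carriers with contrasting behaviour between GV and MII. The 200 bases that precede the annotated transcript start are shown 5' to 3' on the strand of the gene, from RefSeq on GRCm38.p6. Slc25a4, the ADP/ATP carrier form best known from heart and muscle, fell (chr8:46211063-46211262, minus strand). Slc25a16, a carrier linked to coenzyme A, had the largest in vivo rise (chr10:62920433-62920632, plus strand). Slc25a36, a pyrimidine nucleotide carrier, rose (chr9:97111042-97111241, minus strand). Slc25a31, the germ cell ADP/ATP carrier, passed in neither direction (chr3:40708671-40708870, plus strand). Capitals mark a match to 1 of the 4 motifs searched.
Slc25a4: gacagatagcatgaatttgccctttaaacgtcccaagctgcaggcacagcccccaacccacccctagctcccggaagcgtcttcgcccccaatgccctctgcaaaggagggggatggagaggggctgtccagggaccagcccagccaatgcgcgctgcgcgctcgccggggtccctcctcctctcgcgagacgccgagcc
Slc25a16: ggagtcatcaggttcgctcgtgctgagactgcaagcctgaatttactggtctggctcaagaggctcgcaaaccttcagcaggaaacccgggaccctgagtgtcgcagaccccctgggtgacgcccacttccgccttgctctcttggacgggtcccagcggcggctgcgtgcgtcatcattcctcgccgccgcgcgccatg
Slc25a36: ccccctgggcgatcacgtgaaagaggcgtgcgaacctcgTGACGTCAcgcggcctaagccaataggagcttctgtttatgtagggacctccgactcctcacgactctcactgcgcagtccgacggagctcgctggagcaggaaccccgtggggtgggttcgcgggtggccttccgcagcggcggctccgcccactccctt
Slc25a31: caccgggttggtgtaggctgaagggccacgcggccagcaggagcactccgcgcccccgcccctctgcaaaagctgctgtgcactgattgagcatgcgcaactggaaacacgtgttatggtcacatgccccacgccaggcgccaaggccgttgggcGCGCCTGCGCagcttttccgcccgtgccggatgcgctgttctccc

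The motifs, searched on both strands from 250 bases before to 50 after each start, were the NRF1 motif (GCGCA and GCGC with any 1 base between), the ETS motif CCGGAAGT, the cAMP response element TGACGTCA (CRE) and the TATA motif TATAAA. None of these letter patterns contains another. Promoters of 34 of the 44 carriers were in the table. The NRF1 motif was in 5.88% of these genes against 5.19% of all 27025 genes in the table. It lay in the promoters of Slc25a3 and Slc25a31. The CRE was in 5.88% against 2.03%, in Slc25a25 and Slc25a36. The ETS motif was in 2.94% against 4.31%, in Slc25a20, and the TATA motif in 2.94% against 15.7%, in Slc25a18. Of the 10 carriers that rose in either adult comparison 7 had a promoter in the table, and 1 of these held a match, the CRE of Slc25a36. Of the 3 that fell 2 had one, with 0 matches.

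The first comparison asked how carrier transcripts differ between GV oocytes and MII oocytes matured in vivo in adults. Of 37 carriers tested, 9 were higher and 3 were lower at MII, at an adjusted p below 0.05 in limma. Carriers of cofactors and nucleotides held 5 of the 9 rises, and 0 of the 10 tested fell. The carriers that were lower were Slc25a35, Slc25a4 and Slc25a1. The share called, 32.4%, compares with 30.6% of all 12028 genes tested. It was 24.3% against 18.3% for rises and 8.11% against 12.3% for falls. The median log2 difference was 0.16 over the carriers and 0.26 over all genes. GV and MII arrays did not overlap for 12 carriers that were higher and 8 that were lower, beside 34.3% and 24.2% of all genes. A pool gives 1 value for 150 oocytes, so fewer cells of a type and less RNA per cell cannot be told apart.

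**Figure D1:**
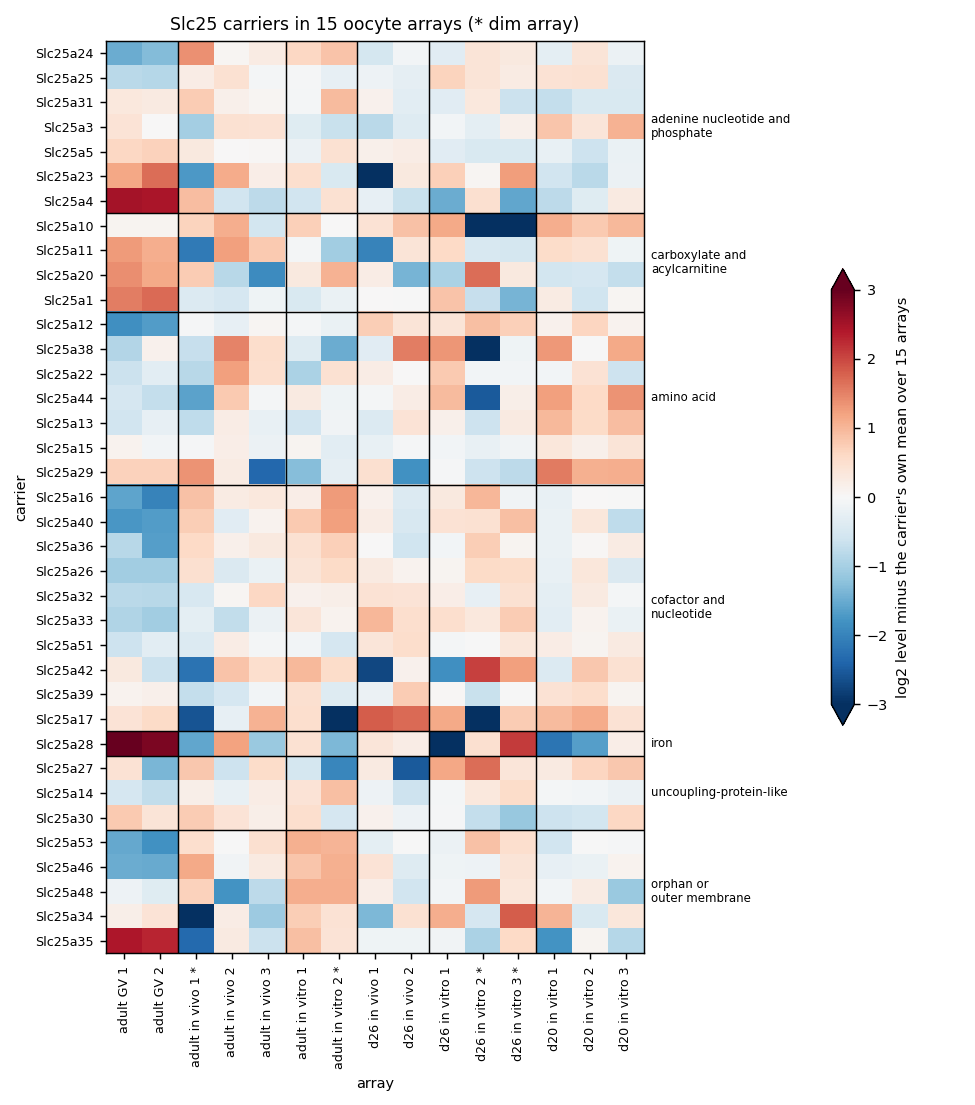
Heat map of the 37 tested carriers (rows, grouped by what they carry) in 15 arrays (columns, grouped by sample group, asterisk for a dim array). Colour is the normalized log2 level minus the carrier's own mean over all arrays, so rows cannot be compared for their level. The 2 GV columns stand apart in the rows of Slc25a4, Slc25a12, Slc25a16, Slc25a40, Slc25a46 and Slc25a53, while Slc25a15 is pale throughout.

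In adult oocytes matured in vitro, 10 carriers were higher and 2 lower than at GV. The share called was 32.4% against 31.3% of all genes, with 27% against 18.4% for rises and 5.41% against 12.9% for falls. The median difference was 0.17 over the carriers and 0.13 over all genes. GV and MII arrays did not overlap for 16 carriers that were higher and 10 that were lower, beside 38.1% and 30.6% of all genes. Lack of overlap was also part of the rule for giving carriers array by array, so below it is a description and no further support. Both comparisons use the same pair of GV arrays, so they are not independent, and the values of each are given side by side below. Slc25a14 passed in vitro alone and Slc25a35 in vivo alone, and neither differed between the 2 kinds of adult MII oocyte by the direct test given further on.

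The direction of the rises depended on the scaling. Across all genes tested, the median difference between in vivo MII and GV was 0.26 after quantile normalization, -0.19 after median scaling and -0.97 in the intensities as deposited. The same medians for in vitro MII were 0.13, -0.52 and -1.93. With median scaling 2 carriers were higher in vivo (Slc25a16 and Slc25a24) and 4 in vitro (those 2 with Slc25a40 and Slc25a53), and 6 and 4 were lower. Of all genes, 6.53% were higher and 18.3% lower in vivo with this scaling, and 6.97% and 21.2% in vitro. In the intensities as deposited 0 carriers were higher, and 6 in vivo and 8 in vitro were lower. Of all genes, 0.0915% were then higher and 16% lower in vivo, and 0.0499% and 28.6% in vitro. A rise below is therefore a rise relative to the other transcripts of the same array under quantile normalization, and most did not pass with median scaling. Without the 4 dim arrays, which leaves a single adult in vitro array, 9 carriers were higher and 5 lower in vivo, and 11 and 2 in vitro. Of all genes 26% were then higher and 16.5% lower in vivo, against 22.2% and 16% in vitro.

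**Figure D2:**
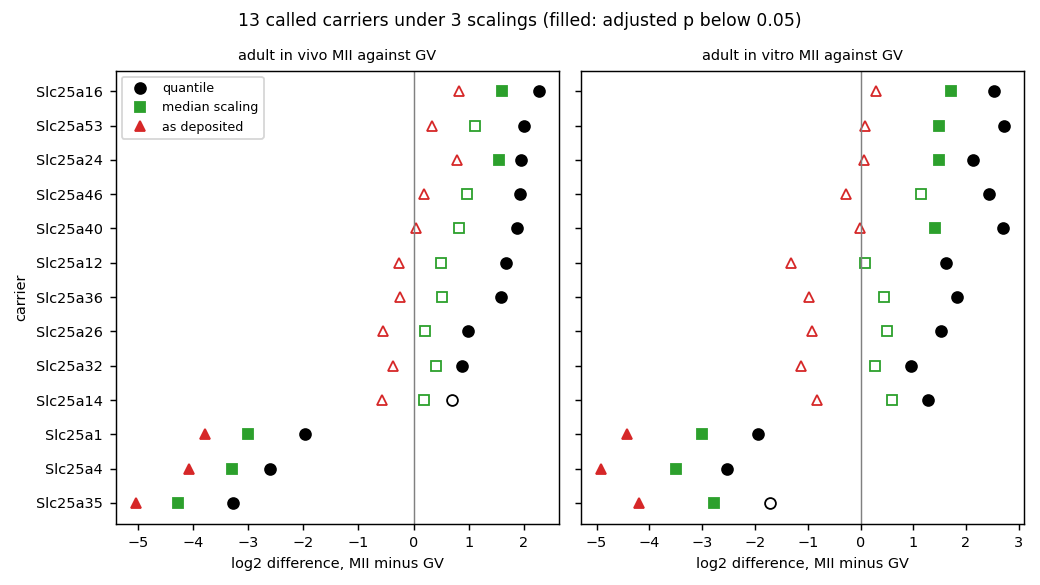
Log2 difference between MII and GV (x axis, MII minus GV) for the 13 carriers that passed in either adult comparison, in vivo on the left and in vitro on the right, under 3 scalings of the same arrays. Filled symbols have an adjusted p below 0.05. Falls of Slc25a1 and Slc25a4 are filled under all 3 scalings in both panels, whereas rises shrink toward 0 or change sign as the scaling moves from quantile to the values as deposited.

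Adenine nucleotide and phosphate carriers link the ATP synthase to the cytosol. Of 7 tested, 1 rose (Slc25a24) and 1 fell (Slc25a4) in each adult comparison. Slc25a4 was at 9.06 and 9.01 in the GV arrays, at 7.51, 5.99 and 5.78 in vivo and at 6.0 and 7.02 in vitro. The groups did not overlap, and the higher value of each MII group came from its dim array. In deposited units the signal was 1364 and 1234 at GV, 61.2, 100 and 74.9 in vivo, and 49.8 and 37.2 in vitro. It fell by 2.61 (SE 0.65, adjusted p = 0.00759) in vivo and by 2.52 (SE 0.71, adjusted p = 0.0155) in vitro. Its other 2 tested probe sets fell as well, by 3.12 and 3.37 in vivo and by 3.35 and 4.97 in vitro. With 1 array left out, the in vivo call ended without GV replicate 1 or 2 (-2.62 and -2.67, adjusted p = 0.0547 and 0.0551). The in vitro call ended without either of these (-2.54 and -2.59, adjusted p = 0.0743 and 0.072) and without adult in vitro replicate 1 (-2.0, adjusted p = 0.111). The low level held in MII oocytes of the younger females, at 6.11 ± 0.31 (SD, n = 2) in d26 in vivo, 5.72 ± 1.15 (SD, n = 3) in d26 in vitro and 6.28 ± 0.53 (SD, n = 3) in d20 oocytes.

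Slc25a31, the ADP/ATP carrier expressed mainly in germ cells, stood at 10.76 and 10.72 at GV. It was at 11.22, 10.62 and 10.52 in vivo and at 10.40 and 11.40 in vitro. The MII arrays lay on either side of the GV arrays. The differences were 0.05 (95% confidence interval -0.69 to 0.78) in vivo and 0.16 (-0.64 to 0.97) in vitro. Under median scaling they were 0.10 and 0.10. As deposited they were -0.67 and -1.31, short of the threshold, beside the overall medians of -0.97 and -1.93. Slc25a5, the ADP/ATP carrier of proliferating tissues, had differences of -0.54 (-1.11 to 0.02) and -0.51 (-1.13 to 0.11). Of its 8 probe sets 4 had differences below 0 and 4 above 0 in each comparison, and 0 passed. Most of them are of a type whose probes can bind related transcripts, so Slc25a5 is uncertain here.

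Slc25a24, a calcium-regulated carrier that exchanges ATP-Mg for phosphate, was at 3.97 and 4.16 at GV, at 6.83, 5.51 and 5.71 in vivo and at 6.08 and 6.30 in vitro. Every MII array of the adults lay above both GV arrays. The rise was 1.95 (SE 0.50, adjusted p = 0.00879) in vivo and 2.12 (SE 0.55, adjusted p = 0.00883) in vitro. Without GV replicate 1 both calls ended (1.81, adjusted p = 0.0783, and 1.98, adjusted p = 0.0646), and without GV replicate 2 the in vivo call did (1.97, adjusted p = 0.0595). Its related carriers Slc25a23 and Slc25a25 had in vivo differences of -1.55 (SE 1.05, adjusted p = 0.33) and 1.04 (SE 0.44, adjusted p = 0.104). Slc25a3, which imports the phosphate for ATP synthesis, was at 10.33 and 9.92 at GV and at 8.89, 10.37 and 10.35 in vivo. Its difference of -0.25 (-1.10 to 0.59) did not pass.

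**Figure D3:**
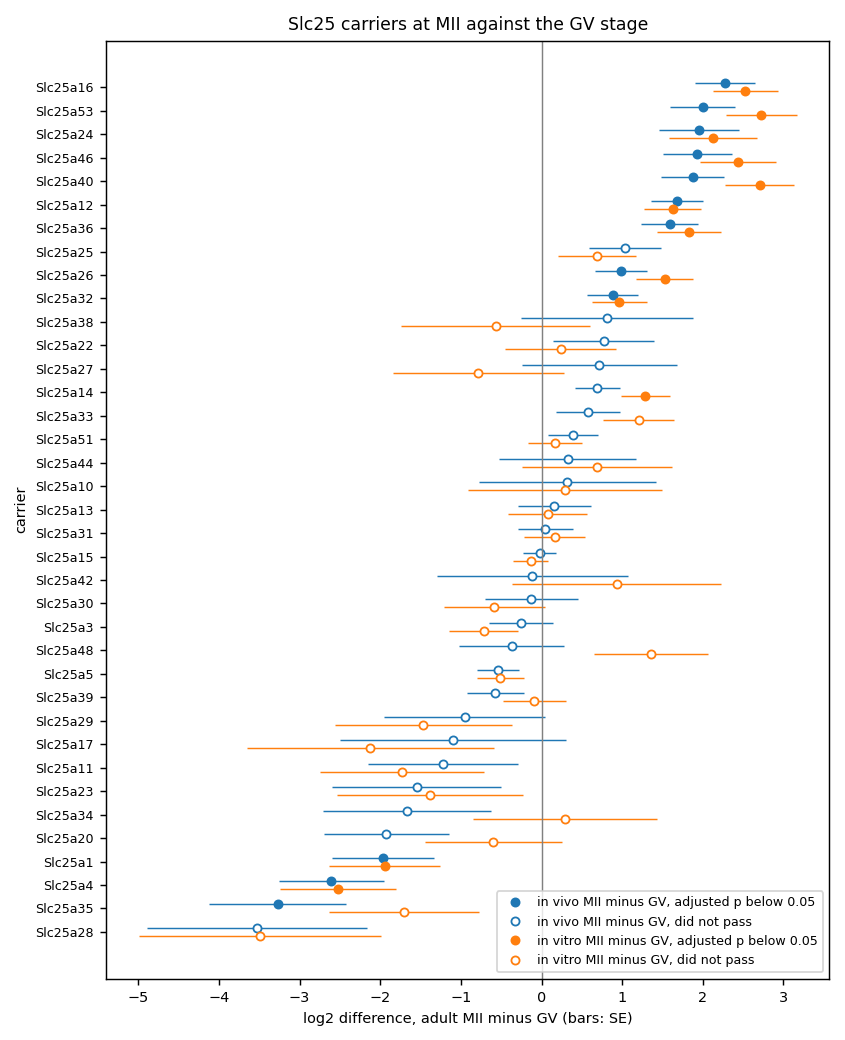
Log2 difference between adult MII and GV oocytes (x axis, MII minus GV) for each of 37 carriers, in vivo in blue and in vitro in orange, with bars for the standard error and filled points for an adjusted p below 0.05. Filled points to the right run from 0.88 to 2.28 in vivo and from 0.96 to 2.72 in vitro, and Slc25a28 at the bottom has wide bars and open points.

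Carboxylate and acylcarnitine carriers supply and drain the citric acid cycle. Of 4 tested, 1 fell and 0 rose in each comparison. Slc25a1, which exports citrate, was at 6.07 and 6.23 at GV, at 4.12, 4.04 and 4.40 in vivo and at 4.08 and 4.34 in vitro. The MII arrays of both kinds lay below the GV pair. The fall was 1.97 on the log2 scale (-1.97, SE 0.63, adjusted p = 0.0309) in vivo and 1.94 (-1.94, SE 0.69, adjusted p = 0.0486) in vitro. Both calls ended without the filter on low signal (adjusted p = 0.0714 and 0.108). The in vivo call also ended without any 1 of the GV or adult in vivo arrays (-2.06 to -1.82, adjusted p from 0.052 to 0.178). The in vitro call ended for 11 of the 15 arrays left out 1 at a time (adjusted p from 0.0574 to 0.201), and was kept without adult in vivo replicate 1 or any d26 in vitro array. Slc25a20, which takes acylcarnitines in for fat oxidation, was at 7.68 and 7.42 at GV and at 7.03, 5.45 and 4.39 in vivo. Its difference of -1.92 (SE 0.78) missed the threshold (adjusted p = 0.0843), and passed as deposited, with median scaling and without the dim arrays, at adjusted p = 0.00173, 0.00327 and 0.00208. In vitro, at 6.57 and 7.33, the difference was -0.60 (adjusted p = 0.665). For Slc25a11, the oxoglutarate/malate carrier of the malate shuttle, the in vivo difference of -1.22 (SE 0.93) and the in vitro difference of -1.73 (SE 1.02) did not pass.

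Amino acid carriers move aspartate, glutamate, ornithine, glycine and branched-chain amino acids. Of 7 tested, 1 rose and 0 fell in each comparison. Slc25a12, the aspartate/glutamate carrier aralar, part of the same shuttle, was at 5.79 and 5.95 at GV, at 7.58, 7.37 and 7.69 in vivo and at 7.57 and 7.43 in vitro. The MII arrays were close to each other and all above the GV pair. The rise was 1.68 (SE 0.32, adjusted p = 0.00127) in vivo and 1.63 (SE 0.35, adjusted p = 0.00289) in vitro, while as deposited the differences were -0.27 and -1.32. Citrin, its paralog Slc25a13, differed by 0.16 (-0.80 to 1.12) and 0.08 (-0.97 to 1.12).

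Slc25a15, the ornithine carrier of the urea cycle, varied least of the 37 over the 15 arrays, within a range of 0.70. It was at 11.67 and 11.48 at GV, 11.51, 11.76 and 11.38 in vivo, and 11.64 and 11.25 in vitro. The differences were -0.02 (-0.45 to 0.40) and -0.13 (-0.60 to 0.33). A dimmer probe set of the same gene rose by 1.74 (SE 0.36, adjusted p = 0.00225) in vivo and by 1.41 (SE 0.40, adjusted p = 0.0151) in vitro, so its probe sets disagree. With the mean of the gene's probe sets the in vivo difference was 0.86 (adjusted p = 0.011).

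Cofactor and nucleotide carriers held 5 of the 9 in vivo rises and 5 of the 10 in vitro. Of 10 tested, 5 rose and 0 fell in each comparison, beside the shares of all genes given above. With median scaling only Slc25a16 of these 5 passed in vivo, and only Slc25a16 and Slc25a40 in vitro. Slc25a16, whose loss disturbs the mitochondrial coenzyme A pool, was at 8.36 and 7.95 at GV, at 10.84, 10.20 and 10.26 in vivo and at 10.16 and 11.21 in vitro. All MII arrays lay above both GV arrays. The rise was 2.28 (SE 0.37, adjusted p = 0.000405), a 4.84-fold difference, in vivo, and 2.53 (SE 0.41, adjusted p = 0.000379), or 5.77-fold, in vitro. In deposited units it was 938 and 739 at GV against 838, 1901 and 2053 in vivo and 1031 and 1017 in vitro. The dim in vivo array lay between the GV arrays on that scale and the other 4 lay above them.

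Slc25a40, a glutathione carrier, was at 6.94 and 7.00 at GV, at 9.42, 8.35 and 8.78 in vivo and at 9.45 and 9.90 in vitro. No MII array of the adults came within the GV range. It rose by 1.88 (SE 0.39, adjusted p = 0.0023) and 2.71 (SE 0.43, adjusted p = 0.000353). Slc25a39, its paralog with the same cargo, had a difference of -0.57 (-1.33 to 0.19) in vivo and -0.09 (-0.93 to 0.74) in vitro. One of its other probe sets rose in vitro, by 1.23 (SE 0.41, adjusted p = 0.0356). Another tested probe set of Slc25a39 was at a mean of 5.80 at GV, 6.81 in vivo and 6.94 in vitro. A dimmer tested one was at 4.71, 2.41 and 4.83, so its probe sets disagree.

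Slc25a36, the pyrimidine nucleotide carrier with a CRE in its promoter, was at 7.45 and 6.63 at GV. It was at 8.88, 8.42 and 8.57 in vivo and at 8.74 and 9.0 in vitro, above GV in all 5 arrays. The rise was 1.59 (SE 0.36, adjusted p = 0.00396) and 1.83 (SE 0.39, adjusted p = 0.00278). Without GV replicate 2 it was 1.20 (adjusted p = 0.0922) and 1.45 (adjusted p = 0.0514), and both calls ended. Slc25a33, its paralog, differed by 0.57 (SE 0.40, adjusted p = 0.345) in vivo and by 1.20 (SE 0.44, adjusted p = 0.0528) in vitro. Slc25a26, which imports the methyl donor S-adenosylmethionine, was at 8.09 and 8.08 at GV, at 9.61, 8.68 and 8.92 in vivo and at 9.52 and 9.71 in vitro. It was higher at MII by 0.99 (SE 0.33, adjusted p = 0.0359) and 1.53 (SE 0.36, adjusted p = 0.0049). The in vivo Slc25a26 call ended in 11 of 25 alternatives. Besides median scaling and the values as deposited these were no filter (adjusted p = 0.0641), the compared groups alone (0.119), no variance trend (0.0781) and no dim arrays (0.70, adjusted p = 0.0689). The others each left out 1 array, GV replicate 1 or 2, adult in vivo replicate 1 or 3 or d20 replicate 1 (adjusted p from 0.0502 to 0.159). A dimmer Slc25a26 probe set, below the filter and not tested, lay the other way, at a mean of 4.95 at GV, 1.87 in vivo and 2.11 in vitro. Slc25a32, the carrier for folate and FAD, rose by 0.88 (SE 0.31, adjusted p = 0.049) and 0.96 (SE 0.34, adjusted p = 0.0483), close to the threshold in both. These calls ended in 18 and 15 of 25 alternatives. With 1 array left out, the in vivo call was kept only without adult in vivo replicate 1 or d26 in vitro replicate 2 (otherwise adjusted p from 0.0505 to 0.195). The in vitro call was kept without those and without adult in vivo replicate 3 or d26 in vitro replicate 3 (otherwise 0.0526 to 0.168). A second probe set of Slc25a32 rose by 1.51 and 1.54, and a dimmer one differed by 2.02 (SE 0.97) and 2.12 (SE 1.06) and did not pass.

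Other cofactor carriers did not pass. Slc25a51, which imports NAD, differed by 0.39 (-0.28 to 1.05) and 0.17 (-0.56 to 0.89). Another tested probe set of this gene was at a mean of 4.69 at GV, 4.98 in vivo and 2.47 in vitro, so its probe sets disagree in vitro. Slc25a42, for coenzyme A, differed by -0.12 (SE 1.18) and 0.93 (SE 1.30). Slc25a17, the peroxisomal member of the family, differed by -1.10 (SE 1.40) and -2.12 (SE 1.54). These last 2 had wide errors, so a difference of several fold in either direction could not be seen.

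**Figure D4:**
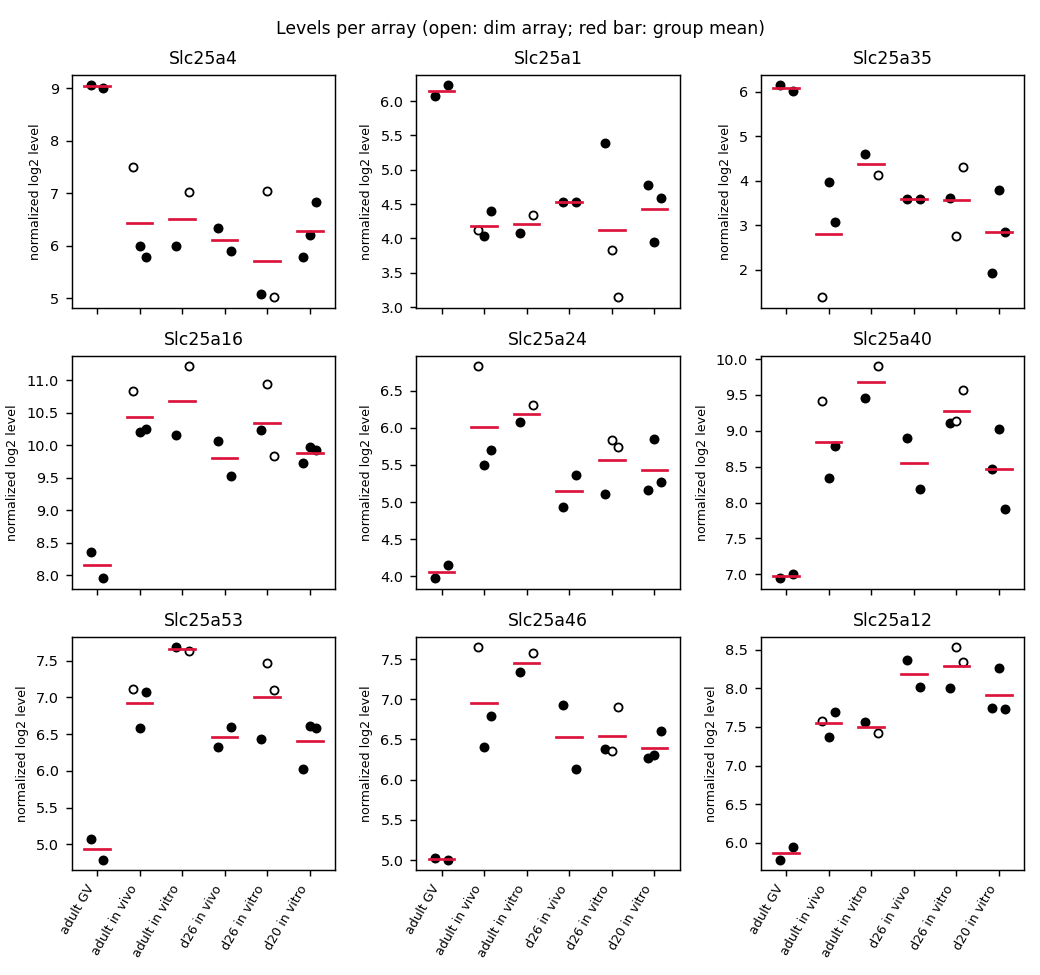
Normalized log2 level (y axis) of 9 carriers in each array, by sample group (x axis). Each point is 1 array, open points are the 4 dim arrays and red bars are group means. In the top row (Slc25a4, Slc25a1 and Slc25a35) the 2 GV points lie above all 13 MII points, and in the lower rows they lie below them. These carriers were chosen partly for lack of overlap between adult GV and MII arrays.

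The iron importer of most cells, mitoferrin 2 (Slc25a28), was at 6.40 and 5.98 at GV. It was at 1.58, 4.36 and 2.03 in vivo and at 3.60 and 1.79 in vitro. GV arrays lay above all of these, but the spread among MII arrays was wide. The differences were -3.53 (SE 1.37, adjusted p = 0.0719) and -3.49 (SE 1.5, adjusted p = 0.102), and both passed as deposited and with median scaling. Mitoferrin 1 (Slc25a37), known from red cell precursors, was too dim to be tested.

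Among the 3 members that resemble uncoupling proteins, Slc25a14 was at 9.10 and 8.88 at GV, at 9.80, 9.40 and 9.84 in vivo and at 10.02 and 10.52 in vitro. It rose in vitro by 1.29 (SE 0.30, adjusted p = 0.00534), a call that ended without GV replicate 2 (1.20, adjusted p = 0.0536) or adult in vitro replicate 2 (1.02, adjusted p = 0.0657), and in vivo its difference was 0.69 (SE 0.28, adjusted p = 0.0832). Slc25a27 and Slc25a30 passed in neither comparison, with in vivo differences of 0.72 (SE 0.97) and -0.13 (SE 0.58).

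Slc25a46 sits in the outer mitochondrial membrane, where it acts on mitochondrial shape. It was at 5.02 and 5.01 at GV, at 7.65, 6.41 and 6.79 in vivo and at 7.33 and 7.57 in vitro. MII and GV arrays were fully apart. The rise was 1.93 (SE 0.43, adjusted p = 0.00365) and 2.44 (SE 0.47, adjusted p = 0.00137). A second probe set differed by 1.45 (adjusted p = 0.115) in vivo and rose by 2.40 (adjusted p = 0.0189) in vitro. Slc25a53, with no settled cargo, was at 5.07 and 4.79 at GV, at 7.12, 6.59 and 7.08 in vivo and at 7.68 and 7.63 in vitro. It rose by 2.00 (SE 0.40, adjusted p = 0.00181) and 2.72 (SE 0.44, adjusted p = 0.000398).

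Slc25a35, likewise without a settled cargo, was at 6.15 and 6.01 at GV, at 1.37, 3.98 and 3.07 in vivo and at 4.61 and 4.13 in vitro. Both MII groups were below GV. The deposited signal was 268 and 235 at GV against 1.59, 25 and 11.1 in vivo and 21.4 and 8.79 in vitro. In vivo the difference was -3.27 (SE 0.85, adjusted p = 0.00951), and it did not pass without GV replicate 1 (-3.14, adjusted p = 0.0821) or 2 (-3.26, adjusted p = 0.075). Since the MII signals are low, its size depends on values near the bottom of the scale. With a pseudocount of 16 added before the log2, Slc25a35 differed by -1.82 (adjusted p = 0.000432) in vivo and -1.20 (adjusted p = 0.0153) in vitro, where without it the difference was -1.71 (adjusted p = 0.201). For Slc25a48 the in vivo difference was -0.37 (SE 0.65) and the in vitro one 1.36 (SE 0.71), neither of which passed, while another of its probe sets fell in vitro by 2.89 (SE 0.84, adjusted p = 0.0183).

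Other genes of mitochondrial transport were taken as fixed lists for reference. Carriers are made in the cytosol and pass through the TOM pore and the small TIM chaperones to the TIM22 complex. Of 12 tested genes of this import route, 2 rose and 4 fell in vivo, beside 18.3% and 12.3% of all genes, and 2 rose and 3 fell in vitro, beside 18.4% and 12.9%. Timm8b, a small TIM chaperone, rose by 1.44 and 1.94, and Timm29, a TIM22 subunit, by 1.97 and 2.54. The receptor Tomm20 fell by 2.64 in vivo and 2.26 in vitro. Small TIM chaperones Timm9 and Timm10b fell by 3.33 and 3.33 in vivo and by 4.21 and 3.43 in vitro, and Timm8a1 fell by 2.26 in vivo. Of 7 tested genes on a list of further mitochondrial transporters, 2 rose and 1 fell in vivo, and 2 rose and 0 fell in vitro. This list includes Ucp1, Ucp3, Mtch1 and Mtch2, which belong to the SLC25 family. Their symbols do not begin with Slc25a, so the 44 carriers leave them out. Mpc1, a subunit of the pyruvate carrier, rose by 1.83 and 2.33, and Sfxn5, a sideroflexin, by 1.34 and 1.44. Sfxn4 fell in vivo by 3.54. Of those not tested, Mtch1 was at a mean of 5.06 at GV, 0.46 in vivo and 0.67 in vitro. Sfxn3 was at 3.15, 3.14 and 1.255, and Ucp1 at 1.37, 1.78 and 2.23. The median in vivo difference was -0.88 over the import list and 0.36 over the other transporters, beside 0.26 over all genes. In vitro these medians were -0.10, 0.56 and 0.13.

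Somatic cell markers were read in the same comparisons. Of 9 tested cumulus and granulosa markers, 2 rose in vivo (Ptgs2 by 2.13 and Kitl by 2.25), beside 18.3% of all genes. In vitro 4 rose (Has2 by 2.76, Ptgs2 by 1.85, Kitl by 2.79 and Nr5a2 by 1.61), beside 18.4%. In each comparison 0 fell, beside 12.3% of all genes in vivo and 12.9% in vitro. Among those that did not pass, Fshr was at a mean of 4.28 at GV, 2.86 in vivo and 3.50 in vitro. Foxl2, which did not pass either, was at 4.45, 5.18 and 5.93, and Amh was too dim to test. Of 4 tested leukocyte markers 0 passed, and 0 of the 4 erythroid markers on the array were bright enough to test. The share of such cells in the carrier levels was not tested.

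A second comparison asked whether carriers differ between MII oocytes matured in the animal and in culture. In adults 0 of 37 carriers passed in limma, beside 0% of all genes. The smallest adjusted p was 0.558, and 1 carrier had an unadjusted p below 0.05, beside 8.14% of all genes. This was Slc25a48, at 6.88, 4.41 and 5.41 in vivo and at 7.29 and 7.30 in vitro (-1.73, SE 0.65). Its other tested probe set lay the other way, at a mean of 5.77 in vivo and 4.04 in vitro, so its probe sets disagree. For the carriers that had moved between GV and MII the in vivo minus in vitro difference ran from -1.57 for Slc25a35 to 0.05 for Slc25a12. For Slc25a4 it was -0.09, with an interval of -1.48 to 1.31, which leaves room for more than a 2-fold difference either way. Slc25a40 differed by -0.83 (-1.67 to 0.01), Slc25a14 by -0.59 (-1.19 to 0.00) and Slc25a35 by -1.57 (-3.38 to 0.25).

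At d26, 0 of 37 carriers differed between in vivo and in vitro maturation, beside 0.0582% of all genes. An unadjusted p below 0.05 was found for 4 carriers, beside 7.27% of genes. Slc25a5 (0.61) and Slc25a10 (2.74) were the higher ones in vivo, and Slc25a14 (-0.65) and Slc25a27 (-2.19) the lower. Deposited signals of Slc25a27 were low, at 8.97 and 2.47 in vivo and 25.6, 13.6 and 5.47 in vitro. Its dimmer probe sets, below the filter and not tested, disagreed. Means in vivo and in vitro were 3.76 and 2.37, 3.56 and 1.13, and, in the same direction as the chosen one, 1.05 and 2.82. Whether the maturation difference itself depended on age, d26 against adult, was tested as an interaction, and 0 carriers passed beside 0% of genes. There the unadjusted p was below 0.05 for Slc25a27 alone (-3.69, SE 1.36), by the same low-signal probe set, beside 3.48% of genes.

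The third design compared in vitro matured oocytes by age of the female. Between d20 and adult oocytes 0 of 37 carriers passed (smallest adjusted p = 0.177), beside 0.0333% of all genes. An unadjusted p below 0.05 was found for 9 carriers, 2 higher and 7 lower at d20, against 10.2% and 9% of all genes. In 10 carriers the d20 arrays lay wholly above the adult ones and in 13 wholly below, beside 22.1% and 21.4% of genes. Slc25a3, the phosphate carrier, was at 10.75, 10.28 and 10.96 at d20, at 9.83, 9.63 and 10.08 at d26 and at 9.56 and 9.25 in adults. The d20 arrays lay above the rest. The d20 minus adult difference was 1.26 (SE 0.39, adjusted p = 0.177) and did not pass. Slc25a13 (citrin) was at 7.27, 6.88 and 7.23 at d20 against 5.72 and 6.20 in adults, a difference of 1.17 (SE 0.45, adjusted p = 0.222).

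Lower at d20 by unadjusted p were Slc25a14, Slc25a16, Slc25a31, Slc25a40, Slc25a46, Slc25a48 and Slc25a53, with differences from -1.41 to -0.76. For Slc25a48 the other tested probe set lay the other way, at a mean of 5.74 at d20 and 4.04 in adults. Slc25a53 was at 6.02, 6.60 and 6.58 at d20 against 7.68 and 7.63 in adults (-1.25, SE 0.40, adjusted p = 0.179). Slc25a31 was at 9.73, 10.01 and 10 against 10.40 and 11.40, of which the higher came from the dim array (-0.99, SE 0.34, adjusted p = 0.199). The direction depended on the scaling. Over all genes the median d20 minus adult difference was 0.05 after quantile normalization, 0.46 with median scaling and 1.31 as deposited. In deposited units Slc25a14, Slc25a16 and Slc25a31 were higher in every d20 array than in both adult arrays. For Slc25a40, Slc25a46, Slc25a48 and Slc25a53 the d20 and adult arrays overlapped on that scale. With an adult group of 2 arrays, 1 of them dim, age and array brightness were not separated here.

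**Figure D5:**
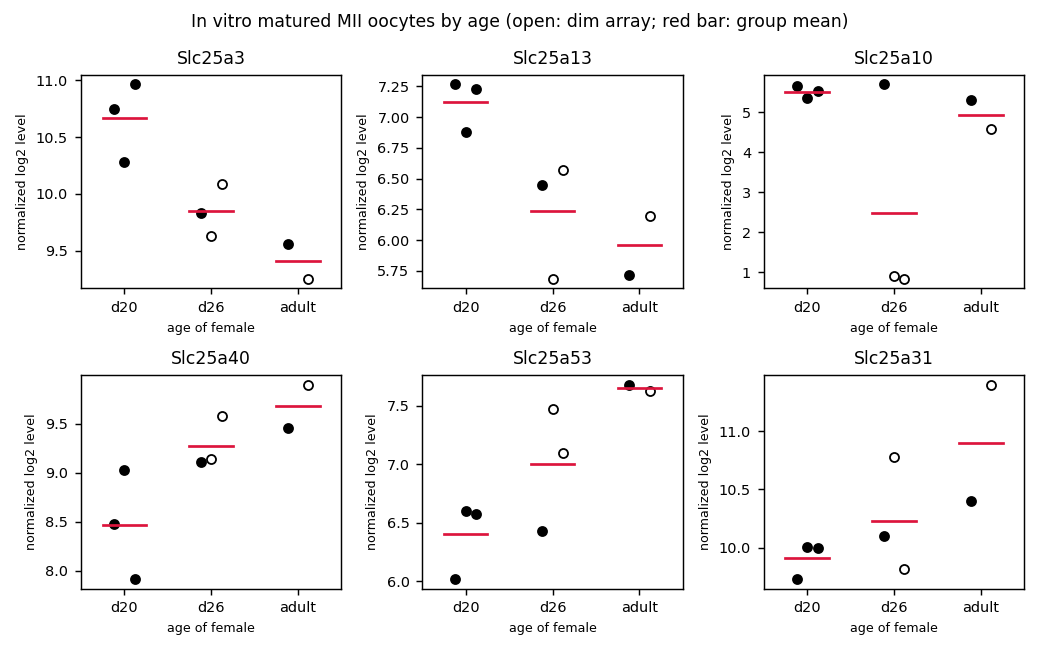
Normalized log2 level (y axis) of 6 carriers in in vitro matured MII oocytes by age of the female (x axis), with 1 point per array, open points for dim arrays and red bars for group means. Slc25a3 and Slc25a13 are highest at d20, Slc25a40, Slc25a53 and Slc25a31 are highest in adults, and both low points of Slc25a10 at d26 are dim arrays. None of these differences passed after adjustment.

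Between d20 and d26 oocytes 0 carriers passed, beside 0% of genes, and 5 had an unadjusted p below 0.05, beside 12% of genes. Between d26 and adult oocytes 0 passed, beside 0% of genes, and 3 had an unadjusted p below 0.05 (Slc25a10 at -2.45, Slc25a12 at 0.80 and Slc25a27 at 2.31), beside 7.36% of genes. Untested probe sets of Slc25a27 again lay on both sides, with d26 and adult means of 2.37 and 3.75, 1.13 and 3.63, and 2.82 and 2.40. Slc25a10, the dicarboxylate carrier, varied widely between the d26 in vitro arrays. It was at 5.70, 0.92 and 0.84 in d26 in vitro oocytes, of which the last 2 were dim arrays, and at 5.65, 5.35 and 5.54 at d20. The d20 minus d26 difference was 3.02 (SE 0.98, adjusted p = 0.414). With the bright d26 in vitro array left out, so that dim arrays alone stood for that group, the difference was 4.64 and passed (adjusted p = 0.0252), as did d26 in vivo against in vitro (4.36, adjusted p = 0.039).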

How the data were processed

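Deposited values were MAS5 intensities of 45101 probe sets on 15 arrays, made by the authors with MAS5 per the submitters' processing notes (version and scaling: not given in the sources used here). They ran from 0.0425 to 21563. The 64 control probe sets were dropped, and the deposited intensities were turned into log2 values and quantile-normalized. The upper 50% by mean (22519 probe sets, log2 of at least 3.07, 12028 genes) entered a limma model (version 3.58.1, R 4.3.3) of the 6 group means, with a variance trend and Benjamini-Hochberg adjustment over all probe sets within each comparison. The threshold was an adjusted p of 0.05, with 9 residual degrees of freedom. Gene names come from the platform annotation (34958 probe sets with 1 symbol, 932 with several, 9211 with none), updated for 34754 by gene ID against the GRCm38.p6 table. One further probe set carries Slc25a37 beside another symbol and was left out.

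The labels do not name separate animals for each pool, so a p-value reflects only how these arrays vary, and that variation may be technical. The number of arrays limits precision. Members, lists and tests were chosen with earlier results of these data known. Values per array are given for up to 8 rises and 8 falls per comparison that passed with a log2 difference of at least 1 and no overlap, for the member of each class with the highest mean, and, chosen after their values were seen, for further carriers. Of each gene list, up to 4 called members per comparison are named. When 200 of 22519 simulated probe sets were changed, adult in vivo MII against GV recovered 57.6%, 23.6% and 3.23% of changes of 4, 2 and 1 on the log2 scale, with 2 false calls. In the data 26.8% of probe sets were called in this comparison. The adjustment is stricter where fewer change, so these rates do not describe the comparison itself. Confidence intervals are at 95%. Alternatives were other scalings, filters, a pseudocount, the compared groups alone, no trend, array weights, probe set means and leaving out arrays.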

Additional observations from a re-analysis of the deposited data

How the results depend on the processing

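None of the 24 calls of a carrier between GV and MII was kept under every alternative and every array left out. In the intensities as deposited 0 carriers were higher in vivo and 0 in vitro, against 9 and 10, and 6 and 8 were lower, against 3 and 2. Median scaling gave 2 and 4 higher and 6 and 4 lower. In vivo, array weights gave 7 lower, and leaving out the dim arrays gave 5. In vitro, no filter gave 1 lower, and a pseudocount of 16 and the compared groups alone gave 4 each. As deposited, 11 called rises took the opposite sign without passing. These were Slc25a12 (-0.27 in vivo, -1.32 in vitro), Slc25a26 (-0.56, -0.92), Slc25a32 (-0.37, -1.13), Slc25a36 (-0.25, -0.97), and in vitro Slc25a14 (-0.82), Slc25a40 (-0.0044) and Slc25a46 (-0.27). The cause was not tested.

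With 1 array left out, 5 to 9 carriers were higher and 0 to 4 lower in vivo, and 7 to 11 higher and 0 to 3 lower in vitro. The 5 came without GV replicate 2, and 0 were lower in either comparison without GV replicate 1 or 2, where a lone array is assumed to vary like the other groups. In vitro 0 were lower without adult in vitro replicate 1. It was 1 without each of adult in vivo replicates 2 and 3, adult in vitro replicate 2, both d26 in vivo and all 3 d20 arrays. Between MII groups the counts stayed at 0, except 0 to 1 higher for d26 in vivo against in vitro and for d20 against d26. The 7 untested carriers did not pass without the filter. No paired analysis was possible because the labels give no shared replicate numbers.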
